A study of Mus musculus with 18 samples.

Results

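The genes described are those of the mitochondrial ribosomal proteins, the proteins that make up the ribosome inside mitochondria. They were taken as every gene symbol of the form Mrpl or Mrps followed by a number and at most 1 letter, which gave 76 of the 23329 genes in the count tables. Of these, 49 encode proteins of the large subunit and 26 of the small subunit. The large-subunit count includes Mrps30 and Mrps18a, which carry small-subunit names and sit in the large subunit. Mrps36 is counted in neither, since its protein is known as a part of the 2-oxoglutarate dehydrogenase complex.

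RNA was sequenced from FDH cells, a line of immortalised fetal liver cells of BALB/c mice (E14.5) used at passages 10 to 12. All cells came from mice without βc and βIL-3, the signalling chains of the IL-3 receptor, and all were transduced with βc. One line was also given wild-type IL3Rα, the chain that binds IL-3 (WT), and the other the P248L form of that chain, the Site 4 mutant of the series title. Both were grown with 100 ng/ml mouse SCF and doxycycline, and sampled there (untreated) or after washing and 2 or 5 days in medium with 100 ng/ml IL-3. The IL-3 medium is described without SCF or doxycycline, so a response to it holds the gain of one and the loss of the others. Each receptor is represented by 1 line, so receptor and line cannot be told apart. There were 3 libraries in each of 6 groups, and whether these came from separate cultures is not stated, so a p-value here covers the spread between libraries only, which may be technical. Il3ra read 7.36 to 11.2 CPM (counts scaled to 1000000 reads) in WT and 3.59 to 8.93 CPM in P248L untreated libraries, and Csf2rb, the gene of βc, 77.8 to 92.1 CPM and 60.4 to 67.7 CPM. The species of the transgenes is not given, so these levels check no genotype.

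Mitochondria keep a small genome that encodes a few subunits of the respiratory chain, and the mitoribosome exists to make them. Its RNAs come from that genome, while all of its proteins are encoded in the nucleus, made in the cytosol and imported. Some of the proteins have a counterpart in bacterial ribosomes and others were added later, many of them at the surface. Cells that grow and divide need new mitoribosomes, and blood cells change their mitochondrial content as they mature.

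Reads in genes numbered 13844612 to 27181962 per library, and levels are CPM after TMM scaling. The same edgeR fit over 11942 genes gave every log2 fold change, its SE and its Benjamini-Hochberg adjusted p, and a gene is said to rise or fall at an adjusted p under 0.05. All 76 genes passed the filter on low counts. A few libraries stood apart. In P248L untreated library 1, 72 of the 76 genes stood above both other libraries of the group, by a median of 0.73 on the log2 scale over their mean. In library 3 of that group, 69 stood below both others, by a median of -0.62. P248L day 2 library 3 also differed from its group across all genes, with a chi-square per degree of freedom of 193 and 97.1 against libraries 1 and 2, where WT pairs gave at most 37.5. Cytosolic ribosomal protein genes summed to between 55911 and 112997 CPM over the P248L untreated libraries, against 49014 to 66061 CPM in WT untreated. Most counts of genes and lists that rest on P248L untreated are given with and without library 1, and single genes where they are named as such. Counts of falls shared between the lines, of motifs by response, of neighbouring genes and by chromosome include library 1 and are not given without it. What sets these libraries apart was not tested.

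The labelled tissue was checked by its markers. Transcripts of liver parenchyma were near 0, with Alb and Ttr at 0 in every library and the list of 6 hepatocyte genes summing to at most 14.3 CPM. Lymphoid genes summed to at most 0.287 CPM and erythroid genes to at most 27.8 CPM. By day 5 all 6 progenitor markers had fallen and all 6 macrophage markers had risen in both lines. Summed progenitor markers ranged from 1978 to 2137 CPM in WT untreated and from 126 to 162 CPM in WT day 5 libraries, and from 2146 to 2460.2 CPM and from 215 to 267 CPM in P248L libraries. Summed macrophage markers ranged from 281 to 322 CPM and from 34281 to 42557 CPM in WT, and from 275 to 316 CPM and from 15376 to 20715 CPM in P248L libraries. The 8 neutrophil granule genes moved both ways. Their sum went from between 8324 and 9392 CPM to between 1119.6 and 1768 CPM in WT, and from between 6204 and 9446 CPM to between 2570.3 and 3560.1 CPM in P248L libraries. Mpo fell by 10.12 in WT and 4.72 in P248L on the log2 scale and Ngp rose by 7.60 and 13.23, while Elane fell by 5.93 in WT and rose by 2.07 in P248L. The part of all these markers in the changes below was not tested, and in bulk RNA fewer cells of a type and less RNA per cell cannot be told apart.

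Promoter windows of 250 bases before to 50 after the start, from RefSeq on GRCm38.p6, were found for 67 of the 76 genes. Windows of 5 genes are shown as examples, picked with their day 5 values known. Mrps27 (chr13:99344536-99344835, plus strand) and Mrpl34 (chr8:71464676-71464975, plus strand) fell far in both lines. Mrps12 (chr7:28741772-28742071, minus strand) shares its start region with Sars2. Mrpl45 (chr11:97315466-97315765, plus strand) rose in both lines, and Mrpl41 (chr2:24975049-24975348, minus strand) rose in WT but not in P248L. Capitals mark exact matches, on either strand, of 5 motifs: CACGTG (the E-box read by Myc and Max), CCGGAAG (ETS, as read by GABP), GCGCATG (NRF1), AAGATGG (YY1) and GGGCGG (SP1 and KLF factors).
Mrps27: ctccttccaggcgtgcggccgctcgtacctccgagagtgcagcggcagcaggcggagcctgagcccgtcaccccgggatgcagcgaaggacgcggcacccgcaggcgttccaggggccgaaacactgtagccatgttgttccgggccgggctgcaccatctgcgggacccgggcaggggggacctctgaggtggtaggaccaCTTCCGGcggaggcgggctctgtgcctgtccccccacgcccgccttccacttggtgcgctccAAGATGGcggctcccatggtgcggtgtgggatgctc
Mrpl34: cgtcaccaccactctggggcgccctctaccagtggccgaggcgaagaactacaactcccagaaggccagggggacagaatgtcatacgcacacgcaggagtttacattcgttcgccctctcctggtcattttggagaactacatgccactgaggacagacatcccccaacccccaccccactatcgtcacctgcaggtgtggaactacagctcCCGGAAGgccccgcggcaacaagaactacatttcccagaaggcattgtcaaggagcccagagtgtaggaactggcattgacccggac
Mrps12: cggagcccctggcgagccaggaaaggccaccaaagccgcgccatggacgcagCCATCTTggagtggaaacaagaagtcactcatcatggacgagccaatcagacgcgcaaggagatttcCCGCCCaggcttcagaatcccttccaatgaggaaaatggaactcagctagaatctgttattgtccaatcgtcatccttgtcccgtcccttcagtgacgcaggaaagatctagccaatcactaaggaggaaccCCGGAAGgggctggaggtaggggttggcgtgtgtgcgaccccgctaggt
Mrpl45: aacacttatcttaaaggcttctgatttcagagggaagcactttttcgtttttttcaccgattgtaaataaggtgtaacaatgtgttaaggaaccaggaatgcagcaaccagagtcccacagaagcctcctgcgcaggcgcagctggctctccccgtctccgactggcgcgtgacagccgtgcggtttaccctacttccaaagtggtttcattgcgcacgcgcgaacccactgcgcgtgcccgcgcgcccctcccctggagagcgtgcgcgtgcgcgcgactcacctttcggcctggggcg
Mrpl41: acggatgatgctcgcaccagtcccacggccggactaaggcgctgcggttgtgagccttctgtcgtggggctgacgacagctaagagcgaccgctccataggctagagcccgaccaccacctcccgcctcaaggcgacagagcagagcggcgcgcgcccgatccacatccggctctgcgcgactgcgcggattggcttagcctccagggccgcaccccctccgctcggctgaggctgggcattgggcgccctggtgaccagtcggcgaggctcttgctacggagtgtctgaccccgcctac

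The Mrps27 window held 1 ETS and 1 YY1 match, the Mrpl34 window 1 ETS match, and the Mrps12 window 1 each of ETS, YY1 and GGGCGG. The Mrpl45 and Mrpl41 windows held none of the 5 motifs. The Mrpl45 window lies within the gene as annotated (start at base 97314923), so bases before that start were not read. Over the 67 windows, CCGGAAG was in 23 (34.3%), against 9.1% of the 27025 promoters in the table and 18.7% of the 8580 that belong to tested genes. AAGATGG was in 13 (19.4%), against 6.5% and 7.6%. GCGCATG was in 8 (11.9%), against 4.0% and 7.3%, and CACGTG in 5 (7.5%), against 7.2% and 10.5%. GGGCGG was in 33 (49.3%), which lies between the 35.9% of all promoters and the 64.1% of promoters of tested genes. By response, CCGGAAG was in 13 of 47 windows of genes that fell at day 5 in both lines and in 10 of 20 of the others. AAGATGG was in 9 of 47 and 4 of 20. The windows shown run against these CCGGAAG shares. Mrps27, Mrpl34 and Mrps12, which fell in both lines, hold the motif, and Mrpl45 and Mrpl41 do not. A match is a run of letters and shows no binding, and no test was made of these shares.

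Levels between genes were compared per kilobase of the median transcript length. The median gene stood at 34.3 CPM per kilobase in WT untreated and 18.8 in WT day 5, and at 50.3 and 19.8 in P248L cells. Mrpl33, the counterpart of a bacterial large-subunit protein, had the highest mean level over all groups at 339 CPM per kilobase, followed by Mrpl20 at 172 and Mrpl30 at 161. The lowest were Mrpl23 at 3.27, Mrps36 at 3.34 and Mrps25 at 9.58 CPM per kilobase. Mrpl23, Mrpl48 and Mrps36 have processed pseudogenes, to which reads can be lost, so their levels are uncertain. For Mrps25, at least 31.6% of the reads of both strands lay on the other strand in every library, where it overlaps Nr2c2.

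**Figure D1:**
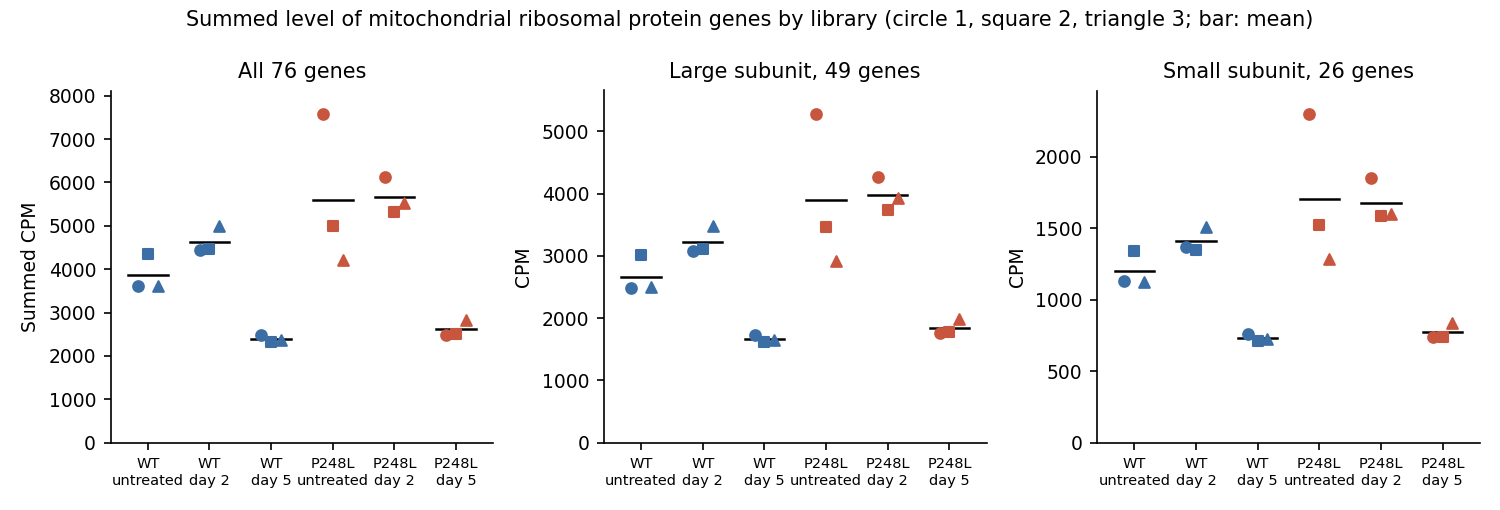
Summed level of the mitochondrial ribosomal protein genes in CPM (vertical axis) in each of 18 libraries by group (horizontal axis), for all 76 genes, the 49 of the large and the 26 of the small subunit. Points are libraries (circle 1, square 2, triangle 3) and bars are means of 3. Every day 5 library lies below every untreated and day 2 library, and P248L untreated library 1 is the highest at 7588 CPM.

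Together the 76 genes gave 3623, 4347 and 3624 CPM in WT untreated libraries 1 to 3, 4441, 4462 and 4988 CPM at day 2 and 2483, 2329 and 2378 CPM at day 5. In P248L libraries they gave 7588, 4990.3 and 4201 CPM untreated, 6116, 5324 and 5520.2 CPM at day 2 and 2494, 2512 and 2829 CPM at day 5. All day 5 libraries of both lines lay below all others, and the 2 lines' day 5 groups met at 2483 and 2494 CPM without overlap. Both subunits followed the same course in the plot of summed levels, the large one from 2665 ± 297 to 1662 ± 54.2 CPM and the small one from 1197 ± 121 to 732 ± 24.1 CPM in WT untreated and day 5 (SD, n = 3).

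At WT day 2, mitochondrial ribosomal protein genes seldom fell. Of the 76, 17 rose (22.4%) and 2 fell (2.6%), where 22.1% of all tested genes rose and 21.8% fell. The rising share is that of all genes. The median log2 fold change was 0.25, against 0 over all tested genes. The largest rises were Mrpl45 (log2 fold change 1.17 ± 0.15, edgeR adjusted p = 4.2e-06), Mrpl41 (0.86 ± 0.24), Mrpl20 (0.84 ± 0.17), Mrpl17 (0.62 ± 0.22) and Mrpl18 (0.60 ± 0.15). The falls were Mrps31 (-0.60 ± 0.11), a small-subunit protein without a bacterial counterpart, and Mrpl24 (-0.49 ± 0.17), a protein near the exit of the tunnel. The count moved from 9 to 39 genes over the alternatives that keep the threshold and the fold, so it is a loose one.

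At WT day 5 most of the genes had fallen. Of the 76, 55 fell (72.4%) and 2 rose (2.6%), against 37.4% and 35.7% of all tested genes, with a median log2 fold change of -0.74 against -0.05. Between day 2 and day 5, 61 fell, where 34.7% of all genes fell and 70.7% were called in either direction, with a median of -1.03. None rose by edgeR, also at an unadjusted p under 0.05, and 1 did by DESeq2. From untreated to day 2 to day 5, 13 genes rose and then ended lower than untreated, among them Mrpl18, Mrps18b, Mrpl47, Mrps7 and Mrps10. Another 40 fell at day 5 and were not past the threshold at day 2. Some of these had day 2 estimates close to those of called genes, such as Mrpl1 (0.36, edgeR adjusted p = 0.095). Shares of all tested genes that took these courses are not given here, so both counts have no background beside them. DESeq2 gave a smaller median of -0.61, and no scaling beyond library size gave -1.18, a setting that moved the median of all genes to -0.49.

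P248L cells at day 5 showed the same direction. Of the 76, 68 fell (89.5%) and 1 rose (1.3%), against 36.2% and 34.8% of all tested genes, with a median of -1.18 against -0.02. Without P248L untreated library 1 it was 60 lower and 1 higher, with a median of -0.86. From day 2 to day 5, a contrast that does not use the untreated libraries, 58 fell and 1 rose, against 33.1% and 37.1% of all genes, with a median of -1.25. The riser there was Mrpl14 (0.92 ± 0.31, edgeR adjusted p = 0.014), which had fallen at day 2.

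Of the genes that fell at day 5, 54 fell in both lines, which is 98.2% of the WT falls and 79.4% of the P248L falls. The share of all tested genes that fell in both lines is not given here, so this overlap has no background beside it. Mrpl19 fell in WT and not past the threshold in P248L, and 14 others passed it in P248L alone. Past the threshold as lower in neither line were Mrpl14, Mrpl33, Mrpl4, Mrpl45, Mrpl52, Mrps21 and Mrps36. The shared and line-only falls were counted with all P248L untreated libraries included. The fold change was lower in P248L than in WT for 70 of the 76. This was 53 without P248L untreated library 1 and 73 without P248L untreated library 3. The share of all tested genes with a lower fold change in P248L is not given here.

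**Figure D2:**
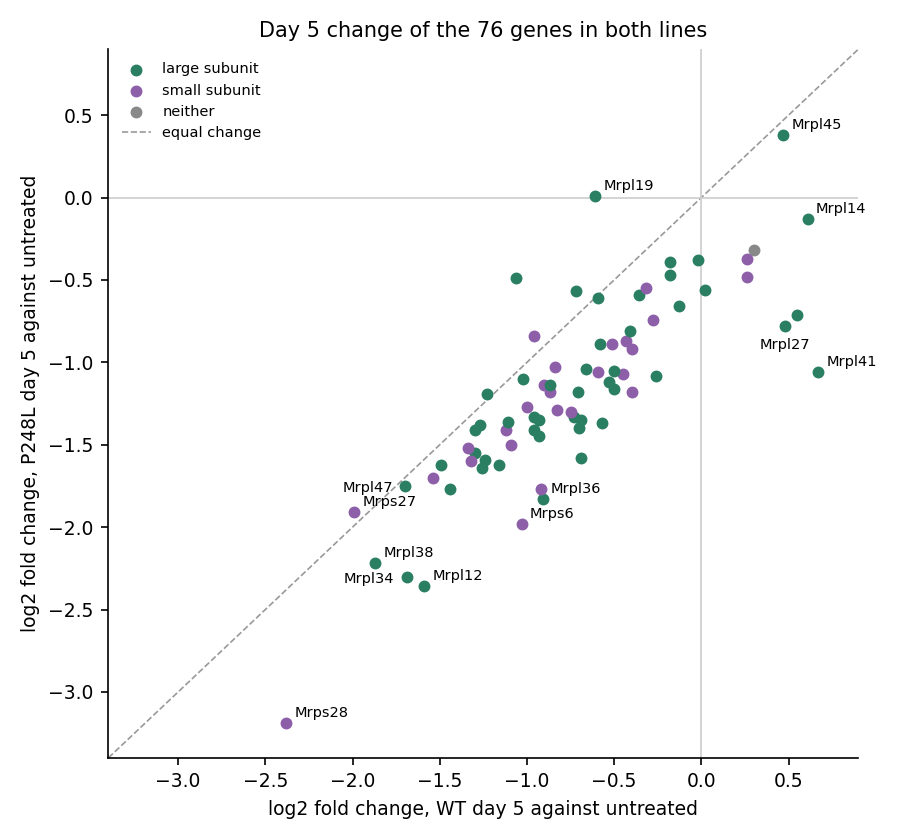
Log2 fold change at day 5 against untreated in WT (horizontal axis) and P248L cells (vertical axis), 1 point per gene, coloured by subunit; the dashed line marks equal change. Most points lie in the lower left, from Mrps28 at -2.38 and -3.19 upwards, with Mrpl45 alone above 0 in both lines.

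A small-subunit gene gave the largest fall in each line. Mrps28, whose protein has a bacterial counterpart, read 24.4, 31.8 and 25 CPM in WT untreated libraries and 5, 4.78 and 5.85 CPM at WT day 5, a log2 fold change of -2.38 ± 0.30 (edgeR adjusted p = 1.1e-06). In P248L it went from 64.4, 36.9 and 29.9 CPM to 4.26, 4.99 and 5.21 CPM, a log2 fold change of -3.19 ± 0.30 (edgeR adjusted p = 4.2e-08). In both lines all untreated libraries lay above all day 5 libraries, and the 2 day 5 groups covered nearly the same range.

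Mrps27, a pentatricopeptide repeat protein of the small subunit, read 42.2, 46.5 and 45 CPM untreated, 39.9, 38.4 and 40.8 CPM at day 2 and 11.1, 11.6 and 11 CPM at day 5 in WT (day 5 log2 fold change -1.99 ± 0.14, edgeR adjusted p = 4.2e-10). In P248L it read 67, 52.4 and 46.9 CPM, then 64.2, 53.7 and 50.7 CPM, then 14.1, 14.8 and 15.5 CPM (-1.91 ± 0.14). The day 5 groups stood apart from both earlier groups in each line, while untreated and day 2 overlapped in P248L. Mrps12, the small-subunit protein of the decoding centre, went from 18.1, 23.8 and 17.7 CPM to 11.3, 9.5 and 10.6 CPM in WT (-0.92 ± 0.33, edgeR adjusted p = 0.02), a call lost without WT untreated library 2 (adjusted p = 0.071) or WT day 5 library 2 (adjusted p = 0.062). In P248L it went from 64.8, 29.3 and 19 CPM to 11.7, 10.3 and 11.4 CPM (-1.77 ± 0.34), where untreated library 1 was more than 3 times library 3.

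The 3 paralogues Mrps18a, Mrps18b and Mrps18c share a bacterial ancestor. Mrps18b, of the small subunit, read 20.8, 21.6 and 19.3 CPM in WT untreated, 32.4, 27 and 31.8 CPM at day 2 and 10.5, 9.78 and 10.5 CPM at day 5, so it rose (0.56 ± 0.17) and then fell below the start (edgeR adjusted p = 7.8e-05). In P248L it did the same, from 27.4, 30.7 and 27.8 CPM to 57, 45.9 and 29.5 CPM (0.63 ± 0.17) and to 11.2, 13 and 11.5 CPM (-1.27 ± 0.18). Mrps18c, also of the small subunit, read 57.7, 74.2 and 53 CPM and at day 5 74.9, 67.4 and 79.7 CPM in WT, with overlap and no call (0.26 ± 0.20, edgeR adjusted p = 0.25). In P248L, Mrps18c went from 118, 79.7 and 70.5 CPM to 50.7, 64.3 and 77.7 CPM, again with overlap (-0.48 ± 0.20, edgeR adjusted p = 0.044), a call lost by DESeq2 (-0.41) and without untreated library 1 (-0.23). Mrps18a, of the large subunit, read 29.6, 34.3 and 30.2 CPM in WT untreated and 25.6, 25.9 and 27 CPM at day 5, which did not overlap but did not pass the threshold (-0.26 ± 0.21). In P248L it fell from 102, 58.5 and 47 CPM to 32, 31.3 and 35.1 CPM (-1.08 ± 0.21).

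In the large subunit, the stalk recruits translation factors. Its protein Mrpl12, which also binds the mitochondrial RNA polymerase, read 83.2, 109.8 and 81.4 CPM in WT untreated, 122, 115 and 138 CPM at day 2 and 33.1, 30.2 and 28 CPM at day 5 (day 5 log2 fold change -1.59 ± 0.26, edgeR adjusted p = 2.8e-05). In P248L it read 262, 139 and 102 CPM, 215, 161 and 126 CPM and 32, 34 and 31.9 CPM (-2.36 ± 0.27, edgeR adjusted p = 3.6e-07). Levels before day 5 were spread and those at day 5 were close, in P248L above all. All 3 stalk genes fell in P248L, or 2 without untreated library 1, and 2 of 3 in WT.

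The central protuberance, the knob at the top of the large subunit, had 6 of 7 genes lower in WT and 7 of 7 in P248L, or 6 without untreated library 1. Mrpl38 read 34, 39.2 and 34.7 CPM in WT untreated and 11.1, 10.9 and 7.55 CPM at day 5 (-1.87 ± 0.28), and at most 55.9 CPM untreated and 11.2, 6.9 and 8.72 CPM in P248L (-2.22 ± 0.28). Mrps30, the large-subunit protein named as a small-subunit one, read 63.8, 70.3 and 63 CPM and at day 5 27, 21.5 and 21.8 CPM in WT (-1.49 ± 0.18), and 112, 74.6 and 60.8 CPM and 25.1, 24.5 and 30.9 CPM in P248L (-1.62 ± 0.18). In neither gene did the 2 times overlap in either line.

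Mrpl34, a short protein with a bacterial counterpart, fell from 46.3, 62.2 and 51.7 CPM to 18.2, 16.4 and 15.1 CPM in WT (-1.69 ± 0.30) and from 139, 71.3 and 55.8 CPM to 19.6, 16.3 and 18 CPM in P248L (-2.30 ± 0.30). Mrpl47 first rose to 44, 48.2 and 55 CPM from 34.2, 40.1 and 34 CPM in WT, then fell to 11.1, 10.6 and 11.6 CPM (-1.70 ± 0.16 against untreated). Its P248L libraries read 58.8, 44.8 and 40.9 CPM, then 63.9, 72.3 and 94.9 CPM, then 13.8, 14.6 and 14.7 CPM (-1.75 ± 0.16). Mrpl47 also had the largest P248L fall from day 2 to day 5 (-2.42 ± 0.17). Mrpl37, a large-subunit protein without a bacterial counterpart, fell from 53.5, 62.9 and 53.5 CPM to 25.9, 26 and 23.9 CPM in WT (-1.16 ± 0.19) and from 107, 75 and 54.6 CPM to 25.1, 25.5 and 26.3 CPM in P248L (-1.62 ± 0.20).

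Genes were also counted by whether their protein has a bacterial counterpart. In WT at day 5, 33 of 47 with a counterpart and 22 of 28 without one fell, with medians of -0.75 and -0.79. In P248L it was 42 of 47 and 26 of 28, with medians of -1.18 and -1.25. The difference between the classes was not tested. By subunit, 37 of 49 large-subunit and 18 of 26 small-subunit genes fell in WT, and 43 of 49 and 25 of 26 in P248L. The P248L counts without untreated library 1 were 37 of 47 with and 23 of 28 without a counterpart (medians -0.91 and -0.85), and 38 of 49 large-subunit and 22 of 26 small-subunit genes.

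Most single genes named above had smaller falls in P248L without untreated library 1. The day 5 log2 fold change was then -2.80 ± 0.26 for Mrps28, -1.95 ± 0.27 for Mrpl38, -1.89 ± 0.19 for Mrpl12, -1.82 ± 0.24 for Mrpl34, -1.75 ± 0.12 for Mrps27 and -1.73 ± 0.18 for Mrps6. It was -1.58 ± 0.15 for Mrpl47, -1.34 ± 0.14 for Mrps30, -1.34 ± 0.16 for Mrpl37, -1.13 ± 0.24 for Mrps12 and -0.69 ± 0.15 for Mrps18a. All of these genes stayed past the threshold, with Mrps28 the furthest down of those named.

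At the exit of the tunnel through which the new protein leaves, 5 of 6 genes fell at day 5 in each line, or 4 in P248L without untreated library 1. Mrpl44 and Mrpl39 are given as examples chosen after their values were seen. Mrpl44, an RNase-like protein there, read 44.5, 52.8 and 44 CPM in WT untreated and 26.1, 22.6 and 24.1 CPM at day 5 (-0.96 ± 0.14, edgeR adjusted p = 9.7e-06), and 80.5, 63.5 and 55.5 CPM and 25.6, 25.2 and 28.8 CPM in P248L (-1.33 ± 0.14, edgeR adjusted p = 2.1e-07). Mrpl39 read 49.5, 50.8 and 51.7 CPM in WT untreated and 27, 30.9 and 34.6 CPM at day 5 (-0.72 ± 0.13, edgeR adjusted p = 9.9e-05), and 73.4, 60.3 and 61 CPM and 44.7, 38.6 and 47.4 CPM in P248L (-0.57 ± 0.13, edgeR adjusted p = 8.1e-04). Mrpl23 was the lowest of the set in level, with few reads and known pseudogenes. The sixth, Mrpl45, went the other way.

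A few genes were near their starting level at day 5. Mrpl33, the most abundant per length, read 141, 189.7 and 149.6 CPM in WT untreated and 143, 135 and 146 CPM at day 5 (-0.18 ± 0.22, edgeR adjusted p = 0.48), and 307, 176 and 141 CPM and 137, 155 and 184 CPM in P248L (-0.39 ± 0.22, edgeR adjusted p = 0.12). Mrpl4, a large-subunit protein with a bacterial counterpart, read 26.2, 32 and 24.5 CPM in WT untreated and 28.1, 25 and 28.4 CPM at day 5 (-0.02 ± 0.29, edgeR adjusted p = 0.95), and 57.3, 37.3 and 27.9 CPM and 30.2, 30.7 and 33.5 CPM in P248L (-0.38 ± 0.29, edgeR adjusted p = 0.25). Mrps21, of the small subunit and also chosen after its values were seen, read 22.8, 27.6 and 21.1 CPM in WT untreated and 31.9, 27.1 and 26.5 CPM at day 5 (0.26 ± 0.25, edgeR adjusted p = 0.36), and 57.5, 30.2 and 22.8 CPM and 30.1, 23 and 32.4 CPM in P248L (-0.37 ± 0.25, edgeR adjusted p = 0.18). None of these passed the threshold in either line, and a p that misses it does not show that a level stayed the same. Mrps36, the one gene of the name pattern outside the ribosome, had as few as 12 reads in a library and read 1.74, 1.78 and 2.22 CPM in WT untreated and 3.11, 2.56 and 1.36 CPM at day 5 (0.30 ± 0.47, edgeR adjusted p = 0.57), and 3.79, 1.74 and 1.28 CPM and 1.99, 0.921 and 2.57 CPM in P248L (-0.32 ± 0.47, edgeR adjusted p = 0.56).

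Mrpl14 and Mrpl52 fell at day 2 in P248L and were not past the threshold at day 5. Mrpl14 read 70.1, 34.8 and 21.4 CPM untreated, 26.5, 21.7 and 12.6 CPM at day 2 (-1.05 ± 0.31, edgeR adjusted p = 0.013) and 38.9, 35.7 and 41.2 CPM at day 5. Mrpl52 read 47.6, 21.2 and 12.8 CPM, 16.9, 11 and 8.09 CPM (-1.18 ± 0.35, edgeR adjusted p = 0.012) and 18.6, 16.1 and 15.2 CPM (day 5 -0.71 ± 0.34, edgeR adjusted p = 0.072). For both genes untreated and day 2 libraries overlapped as groups, with untreated library 1 far above the rest, and within each replicate number day 2 was the lower. With the replicate number as a block in these groups, the log2 fold changes were -0.97 ± 0.15 for Mrpl14 and -1.07 ± 0.18 for Mrpl52 (edgeR adjusted p = 5.0e-05 and 1.1e-04). Without untreated library 1 and without the block they were -0.47 for Mrpl14 and -0.50 for Mrpl52 (edgeR adjusted p = 0.14 and 0.15).

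Mrpl45, which holds the large subunit to the inner membrane at the tunnel exit, was the only one of the 76 to rise at day 5 in both lines. It read 55.3, 62.4 and 51.4 CPM in WT untreated, 125, 131 and 124 CPM at day 2 and 76.9, 76.6 and 81.4 CPM at day 5. The 3 WT groups did not overlap, with log2 fold changes of 1.17 ± 0.15 at day 2 and 0.47 ± 0.15 at day 5 (edgeR adjusted p = 0.0071). In P248L it read 96.3, 66 and 59.6 CPM, 95.6, 91.6 and 94.3 CPM and 87.6, 94 and 107 CPM, with overlap through untreated library 1, and a day 5 log2 fold change of 0.38 ± 0.14 (edgeR adjusted p = 0.026). Neither day 5 call held without scaling beyond library size (0.04 in WT and 0.17 in P248L), and the P248L call was also lost with upper-quartile factors (0.29), in a fit of only the libraries compared, and without any of 8 single libraries, among them P248L untreated 3 (0.20, edgeR adjusted p = 0.22), while without P248L untreated 1 it was 0.61 ± 0.11. At day 2 Mrpl45 did not pass the threshold in P248L (0.34 ± 0.14, edgeR adjusted p = 0.069). With the replicate number as a block in P248L untreated and day 2, it rose (0.37 ± 0.12, edgeR adjusted p = 0.013). Without the block, the P248L day 2 response minus that of WT was -0.83 ± 0.20 (edgeR adjusted p = 0.015). It was -0.59 without P248L untreated library 1 (edgeR adjusted p = 0.016).

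Mrpl41, a large-subunit protein without a bacterial counterpart, moved in opposite directions. It read 30.1, 38.1 and 27.5 CPM in WT untreated, 54.2, 55.2 and 64.3 CPM at day 2 and 57.8, 48.1 and 46.7 CPM at day 5 (day 5 log2 fold change 0.67 ± 0.24, edgeR adjusted p = 0.016). In P248L it read 78.3, 42 and 31.6 CPM, 65.5, 51 and 56.6 CPM and 23.7, 22.9 and 26.2 CPM (-1.06 ± 0.24, edgeR adjusted p = 6.6e-04). All WT day 5 libraries lay above the WT untreated ones, and all P248L day 5 libraries below the P248L untreated ones. The difference of the day 5 responses was -1.74 ± 0.33 (edgeR adjusted p = 8.4e-04), and -1.28 without P248L untreated library 1 (adjusted p = 2.9e-04). By edgeR, the WT rise alone was lost without scaling beyond library size (0.23, adjusted p = 0.33) and without WT untreated library 1 or 3 or WT day 5 library 1 (adjusted p = 0.056, 0.073 and 0.064).

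**Figure D3:**
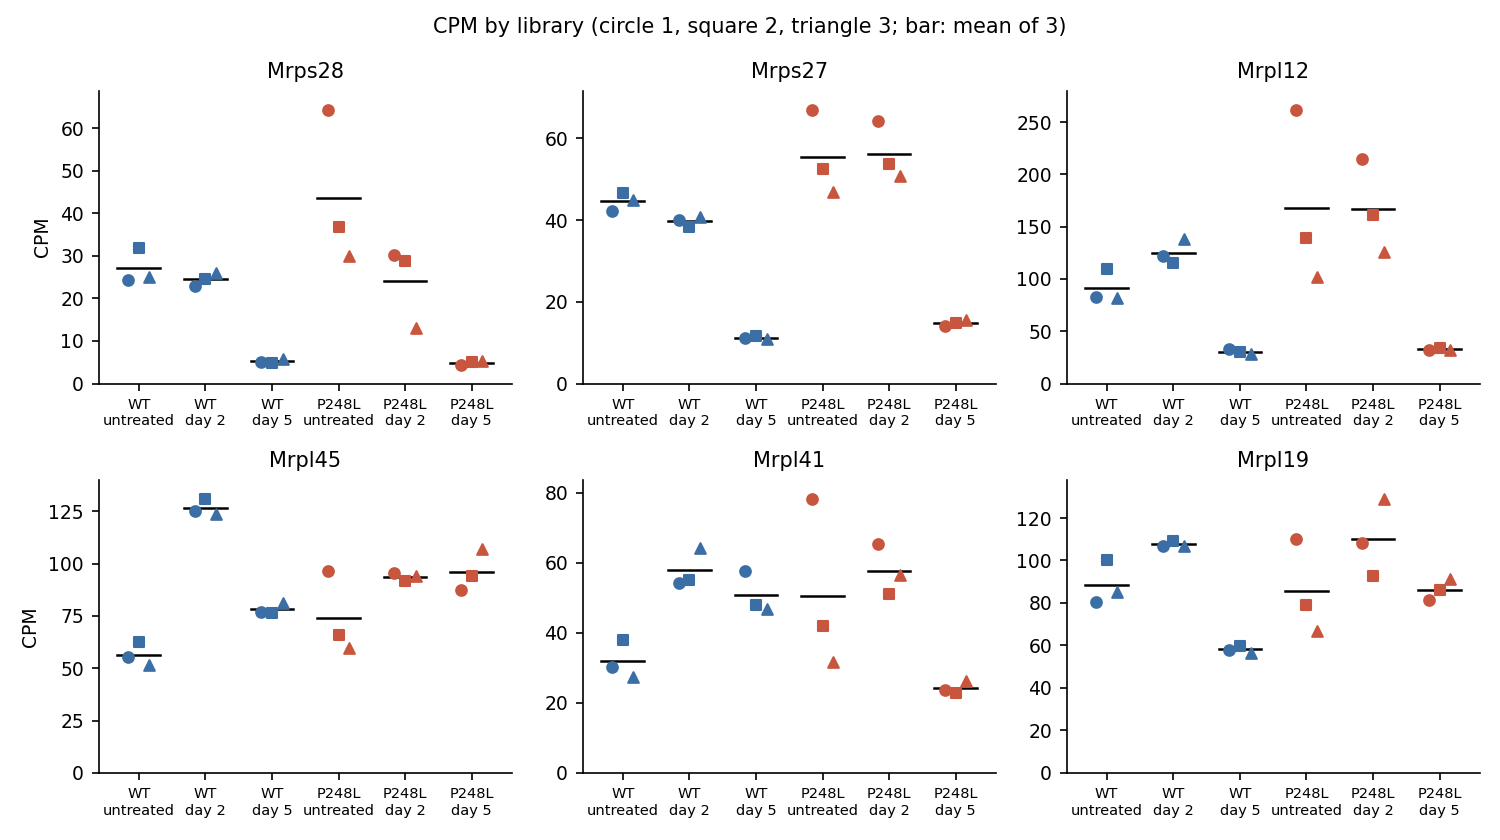
CPM (vertical axes, each from 0) of 6 genes in each library by group; points are libraries (circle 1, square 2, triangle 3) and bars are means of 3. Mrps28, Mrps27 and Mrpl12 are low in all day 5 libraries, Mrpl45 peaks in WT day 2, Mrpl41 is low at day 5 in P248L alone and Mrpl19 at day 5 in WT alone.

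Few differences between the lines' responses were called at day 2, and the number at day 5 depended on single libraries. At day 2, Mrpl45 was the only one of 76 called (1 lower and 0 higher by edgeR, 1 and 1 by DESeq2, and 7 and 2 at an unadjusted p under 0.05 by edgeR), where 6.50% of all tested genes were lower in P248L minus WT and 9.55% called in either direction. At day 5, 7 were lower and 1 higher, against 12.2% and 14.7% of all genes, with a median of -0.41. Without P248L untreated library 1 it was 6 lower and 2 higher (median -0.14), without P248L untreated library 3 it was 32 lower and 0 higher (median -0.62), and the lowest count was 3, without WT untreated library 1. Beside Mrpl41, the lower ones of largest size were Mrpl27 (-1.26 ± 0.31), Mrps6 (-0.95 ± 0.28), Mrpl36 (-0.91 ± 0.31) and Mrpl11 (-0.88 ± 0.27).

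Mrpl27, a protein with a bacterial counterpart, read 20.3, 23.5 and 19 CPM in WT untreated and 29.2, 26.7 and 31.6 CPM at day 5 (0.48 ± 0.22, edgeR adjusted p = 0.06), and 43.1, 24.3 and 20.9 CPM and 14.1, 15.9 and 21.6 CPM in P248L (-0.78 ± 0.22). WT day 5 lay above untreated in all libraries, and in P248L 1 day 5 library lay above the lowest untreated one. Mrps6, of the small subunit, fell in both lines, from 13.4 to 18.5 CPM over the untreated libraries to 8.28, 6.99 and 7.42 CPM in WT (-1.03 ± 0.20) and from 33.2, 22.6 and 19.9 CPM to 5.28, 6.67 and 7.34 CPM in P248L (-1.98 ± 0.20). Mrpl19 gave the one difference the other way (0.62 ± 0.22, edgeR adjusted p = 0.045), falling from 80.5, 100.1 and 85.3 CPM to 57.9, 59.8 and 56.5 CPM in WT and reading 110.1, 79.2 and 66.9 CPM and 81.2, 85.9 and 91.3 CPM in P248L. That last call was near the threshold, and DESeq2 gave 0.57 (adjusted p = 0.058), with 12 genes lower and 0 higher in all.

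At day 2 in P248L cells the genes were split, and the counts rest on the untreated libraries. Of 76, 13 rose and 7 fell, against 18.5% and 21.5% of all tested genes, with a median of -0.0009. The largest rises were Mrpl47 (0.68 ± 0.16), Mrpl32 (0.64 ± 0.17), Mrps18b (0.63 ± 0.17), Mrpl1 (0.60 ± 0.17) and Mrps2 (0.59 ± 0.11), and the largest falls Mrpl52 (-1.18 ± 0.35), Mrpl14 (-1.05 ± 0.31), Mrps28 (-0.86 ± 0.27), Mrpl28 (-0.74 ± 0.27) and Mrps31 (-0.62 ± 0.11). Without P248L untreated library 1, 28 rose and 1 fell, with a median of 0.29, and a fit of only these 6 libraries called 0 higher and 1 lower. With the replicate number as a block in these 2 groups, 18 rose and 14 fell. Shares of all tested genes in these alternative fits are not given here, so their counts have no background beside them.

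Between the untreated lines, the number of genes that stood higher in P248L cells depended on single libraries. Of 76, 23 were higher and 0 lower by edgeR (39 and 0 by DESeq2, and 55 and 0 at an unadjusted p under 0.05 by edgeR), where 10.3% of all tested genes were higher and 21.7% called in either direction, with a median of 0.48 against -0.01. Without P248L untreated library 1 it was 9 higher and 0 lower with a median of 0.20, and without P248L untreated library 3 it was 68 higher. Shares of all tested genes in the fits with a library left out are not given here. At day 2, 19 were higher and 1 lower (Mrpl45, -0.43 ± 0.14), against 15.5% and 20.3% of all genes, with a median of 0.24. At day 5, 10 were higher and 2 lower (Mrpl41, -1.07 ± 0.24, and Mrpl27, -0.76 ± 0.22), against 22.8% and 22.7%, with a median of 0.07.

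Among genes past the threshold, the 5 with the largest difference between the untreated lines, Mrpl28 (1.72 ± 0.27), Mrpl14 (1.42 ± 0.31), Mrps18a (1.14 ± 0.21), Mrpl2 (1.13 ± 0.25) and Mrps10 (0.95 ± 0.18), all lie on chromosome 17. Mrpl52, on chromosome 14, had as large an estimate as Mrps10 without passing it (0.95 ± 0.34, edgeR adjusted p = 0.056). That chromosome was singled out after these values were seen. It carries 8 of the 76 genes, the others being Mrpl18, Mrps34 and Mrps18b, and 7 of the 8 were higher in P248L untreated, 7 at day 2 and 4 at day 5. The 639 tested genes of chromosome 17 had a median log2 fold change of P248L over WT of 0.56 untreated, 0.50 at day 2 and 0.61 at day 5. On the 18 other autosomes the medians ran from -0.07 to 0.05, from -0.08 to 0.14 and from -0.08 to 0.10. Of the tested chromosome 17 genes, 51.6%, 46.6% and 54.6% were higher in P248L at the 3 times, against 8.0%, 13.7% and 20.9% elsewhere.

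Mrpl28, a large-subunit protein with a bacterial counterpart, shows it by library. It read 30.4, 46.4 and 29.9 CPM in WT untreated against 175, 104 and 71.2 CPM in P248L, 32.9, 36.6 and 36.7 CPM against 86.7, 75.4 and 47.4 CPM at day 2, and 23.5, 19 and 21.9 CPM against 39.4, 46.9 and 53 CPM at day 5. At no time did the lines overlap. Among the 68 genes elsewhere, 16 were higher and 0 lower untreated (median 0.46), 12 higher and 1 lower at day 2 (0.21) and 6 higher and 2 lower at day 5 (0.03). The responses within a line did not differ in this way: the difference of day 5 responses had a median of 0.05 over chromosome 17 genes and 0.04 elsewhere. DNA of the lines was not measured, and the part of the whole chromosome in these members' values was not tested. Values by chromosome that use P248L untreated include library 1 and are not given without it.

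**Figure D4:**
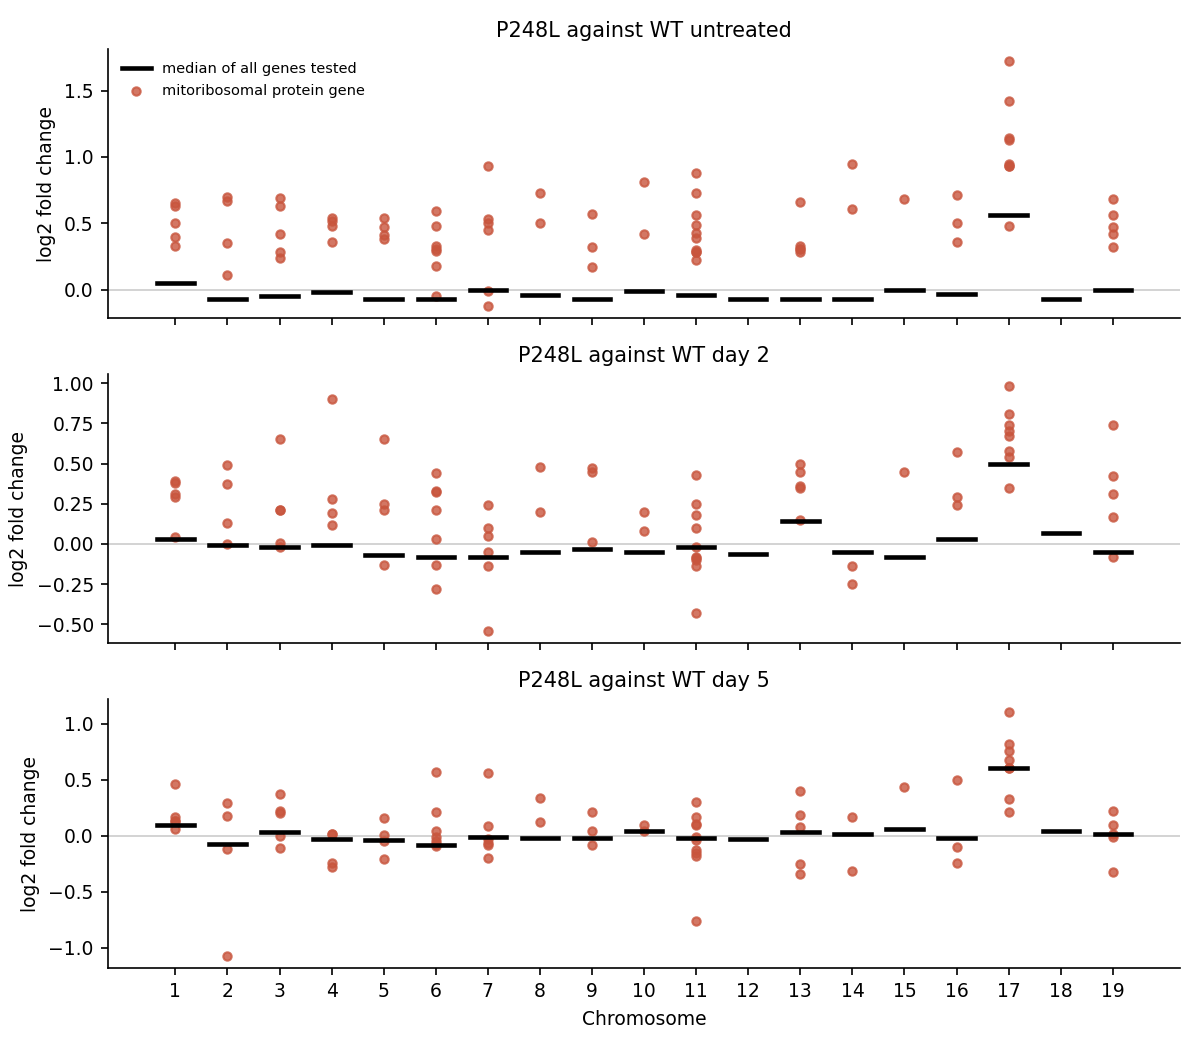
Log2 fold change of P248L over WT (vertical axes) by autosome (horizontal axis), untreated, at day 2 and at day 5. Points are mitochondrial ribosomal protein genes and black bars the median of all tested genes of a chromosome, which is 0.56, 0.50 and 0.61 on chromosome 17 and between -0.08 and 0.14 on the others.

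For 32 of the 76 mitochondrial ribosomal protein genes, a protein-coding gene on the opposite strand starts within 1000 bases, here called a shared start region. The share of all genes with such a neighbour is not given here, so this count has no background beside it. For Mrps11 and Mrpl46 the neighbour is a fellow member, with starts 412 bases apart. This pair fell together, Mrps11 by 0.75 ± 0.20 and Mrpl46 by 0.50 ± 0.18 on the log2 scale in WT and by 1.30 ± 0.20 and 1.16 ± 0.18 in P248L. Of the 26 tested neighbours that are not members, 14 fell and 6 rose at day 5 in each line, where 37.4% and 36.2% of all tested genes fell and 35.7% and 34.8% rose, with medians of -0.63 in WT and -0.57 in P248L. The P248L values of the neighbours rest on all 3 untreated libraries. Ndufs6, a complex I subunit 29 bases from Mrpl36, fell by 0.71 in WT and 1.63 in P248L, beside 0.91 and 1.83 for Mrpl36. Sars2, the mitochondrial seryl-tRNA synthetase, fell by 1.52 and 1.67 beside Mrps12. Klc4, a kinesin light chain, rose by 2.06 and 1.22 while its neighbour Mrpl2 fell by 0.93 and 1.45. Pnpla7, which starts 935 bases from Mrpl41, rose by 2.71 and 1.67. A shared start region thus went with the same direction in some pairs and with opposite ones in others.

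The rest of the mitochondrial translation apparatus was read from lists. Of 7 mitoribosome proteins with other symbols, 6 fell in WT at day 5 and 7 in P248L, or 6 in P248L without untreated library 1. Gadd45gip1 (-2.17 ± 0.27 in WT and -2.41 ± 0.27 in P248L), Ptcd3 (-1.87 ± 0.25 and -1.39 ± 0.25), Chchd1 (-1.32 ± 0.20 and -1.67 ± 0.20) and Dap3 (-0.85 ± 0.15 and -0.74 ± 0.15), the last 3 of the small subunit, fell in both. So did Ict1, a rescue factor built into the large subunit (-0.71 ± 0.24 and -0.99 ± 0.24), and Mrp63 (-0.88 ± 0.30 and -1.38 ± 0.30). Aurkaip1 had -0.06 ± 0.26 in WT (edgeR adjusted p = 0.85) and fell in P248L (-0.85 ± 0.26).

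Of 26 genes for assembly of the mitoribosome and modification of its RNA, 15 fell and 1 rose in WT, and 21 fell in P248L, or 18 without untreated library 1. The smallest p in WT were those of the GTPases Noa1 (-1.48 ± 0.13 in WT, -1.99 ± 0.13 in P248L) and Gtpbp10 (-1.64 ± 0.15, -0.92 ± 0.16) and of Fastkd2, which binds the large ribosomal RNA (-1.25 ± 0.13, -1.78 ± 0.13). Of 16 translation factors, 12 fell in WT and 13 in P248L with or without untreated library 1, among them Guf1 (-1.77 ± 0.16, -1.30 ± 0.16), the mRNA-binding Lrpprc (-1.11 ± 0.13, -1.34 ± 0.13) and the elongation factor Gfm1 (-0.84 ± 0.11, -1.04 ± 0.11). Gfm1 had first risen at day 2 (edgeR adjusted p = 5.0e-06 in WT and 1.2e-06 in P248L). Of 7 genes of mitochondrial transcription, 6 fell in WT and 7 in P248L, or 6 without untreated library 1, among them Tfam, which packs and transcribes mitochondrial DNA (-1.60 ± 0.14, -1.49 ± 0.14). No row of the tables is a mitochondrially encoded gene, so the products of this apparatus were not read.

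Larger sets of genes give a comparison. Of 77 tested cytosolic ribosomal protein genes, 68 fell and 1 rose in WT at day 5 (median -1.01), and 55 fell and 1 rose in P248L (median -0.72). Leaving out P248L untreated library 1, 24 fell and 1 rose (median -0.36), a share below the 35.1% of all genes that fell in that fit, where 60 of the 76 mitochondrial ones fell. From day 2 to day 5 in P248L, 11 of these 77 fell (median -0.09), where 58 of the 76 mitochondrial ones did (median -1.25). At day 5, 59 of 77 cytosolic genes were higher in P248L than in WT (median 0.81), and 10 of 76 mitochondrial ones (median 0.07). A list of nuclear-encoded subunits of oxidative phosphorylation was taken by symbol pattern, so it can hold genes that are not subunits. Of its 80 tested genes, 30 fell in WT (37.5%, near the 37.4% of all genes, with a median of -0.38). In P248L 64 fell and 1 rose (median -0.85), or 47 and 3 without P248L untreated library 1 (median -0.54). No difference between lists was tested.

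**Figure D5:**
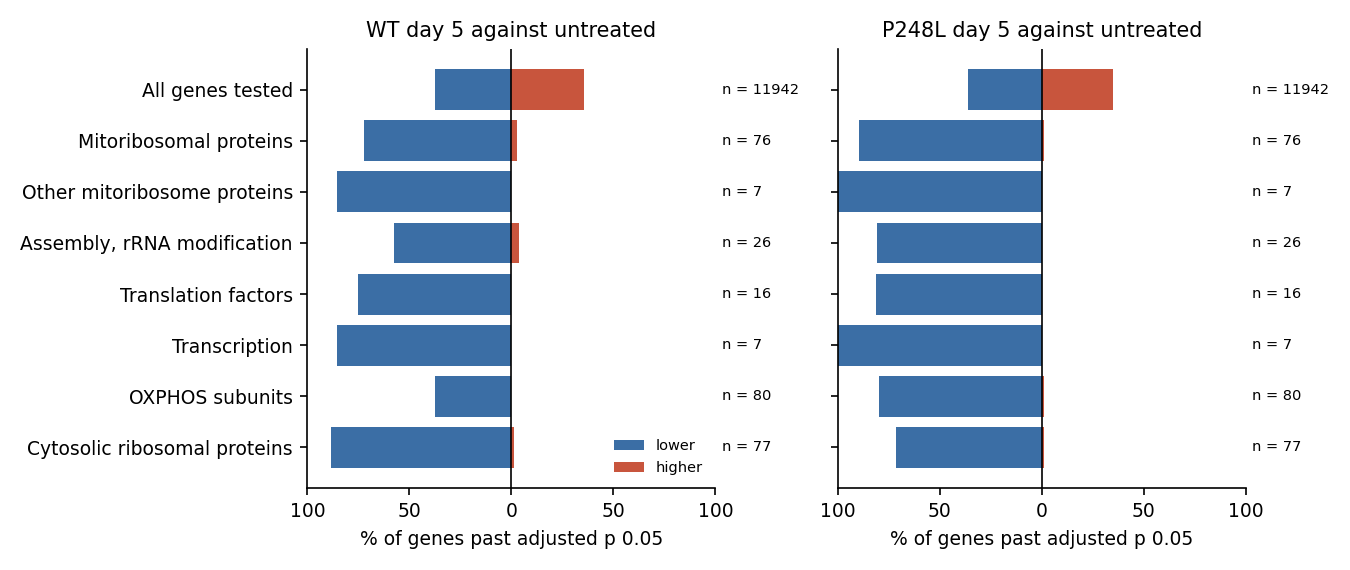
Share of the tested genes of each list that fell (blue, to the left) or rose (red, to the right) at day 5 against untreated, in percent, in WT and P248L cells, with the number tested at the right. Mitochondrial ribosomal protein genes fell in 72.4% and 89.5%, against 37.4% and 36.2% of all genes, with all P248L untreated libraries included.

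Among 12 regulators known for growth or mitochondrial genes, 11 were tested, and 6 fell in each line at day 5 while 2 rose in WT and 1 in P248L. With P248L untreated library 1 left out, 5 fell and 1 rose in P248L. Myc, which drives ribosome genes in growing cells, fell by 3.22 ± 0.21 in WT and 1.97 ± 0.20 in P248L on the log2 scale. Mxd1, which competes with Myc for their partner Max, rose by 3.61 ± 0.14 and 4.01 ± 0.15, and at day 2 it had a log2 fold change of 2.51 in WT and -0.06 in P248L. Pprc1, a coactivator of mitochondrial genes, fell by 1.37 ± 0.16 and 1.90 ± 0.16. Mycn rose in WT (2.46 ± 0.39) and did not pass the threshold in P248L (1.71 ± 1.57). Nrf1 fell in both lines (-0.99 ± 0.11 in WT and -0.54 ± 0.11 in P248L). Gabpa and Yy1 fell in WT (-0.55 ± 0.23 and -0.36 ± 0.13) and did not pass the threshold in P248L (0.07 ± 0.23 and -0.27 ± 0.12). Whether these move the genes described was not tested.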

How the data were processed

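RNA was sequenced in 18 libraries. The authors deposited read counts per gene, as whole numbers, in the 4-column layout of STAR; STAR and the mouse build mm10 are named per the submitters' processing notes, with no version; annotation and filters: not given in the sources used here. Only the column of the strand that held the reads entered; reads on the opposite strand came to 1.17 to 2.54%, and 27.9 to 38.1% of reads fell in no single gene and were left out.

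Genes were filtered with edgeR 4.0.16 (filterByExpr, minimum count 10) and scaled by TMM, and 1 mean per group was fitted over all 18 libraries with the quasi-likelihood F test (R 4.3.3), giving 11 contrasts with Benjamini-Hochberg adjustment over 11942 genes; the SE is the log2 fold change over the root of F. The fit was tested on simulated data. For each contrast the 5 largest rises and falls past the threshold were named, with 9 genes named throughout. The members and lists were chosen with earlier results of these data known, and the lists outside the member pattern are no independent evidence. Alternatives used DESeq2 1.42.0, limma 3.58.1, other scalings, filters, thresholds and left-out libraries. Transcript lengths came from GENCODE M21 and promoters from RefSeq. Same-numbered libraries of P248L untreated and day 2 deviated together (correlations 0.46, 0.17 and 0.35). In no other comparison did every pair have a correlation over 0.1. In P248L against WT at day 5 all pairs were above 0 (0.062, 0.068 and 0.16).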

Additional observations from a re-analysis of the deposited data

Results flagged for a closer look

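The responses to IL-3 medium differed between the lines for 9 genes by the interaction test of edgeR (values are P248L minus WT on the log2 scale, with adjusted p). At day 2, Mrpl45 differed by -0.83 (0.015), and its call was lost without WT untreated library 3 (-0.75, 0.052). The Mrpl45 call was also lost in a fit of only the libraries compared and against a fold of 1.5. At day 5, Mrpl41 differed by -1.74 (8.4e-04) and Mrpl27 by -1.26 (0.006). Mrpl41 kept its call in every alternative run, and Mrpl27 in all but the test against a fold of 1.5 (0.052). Mrps6 differed by -0.95 (0.019), and the call was lost without WT day 5 library 1 (0.051) or P248L day 5 library 1 (0.059). Mrpl11 differed by -0.88 (0.024), lost without WT untreated library 1 (0.055) or 3 (0.053), WT day 5 library 1 (0.053) or P248L day 5 library 2 (0.057). Mrpl36 differed by -0.91 (0.038), lost without P248L untreated library 1 (-0.65, 0.10) and without 6 other single libraries. Mrpl20 differed by -0.80 (0.022) and Mrpl16 by -0.45 (0.035), and their values in the alternative runs are not given here. Of all the day 5 differences, only that of Mrpl41 stayed called against a fold of 1.5. Mrpl19 differed by 0.62 (0.045), and this call was lost by DESeq2 (0.57, 0.058), with the length and GC trend removed (0.29, 0.54) and without most single libraries.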

How the results depend on the processing

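No called result reversed its direction under any alternative run; the median difference of day 2 responses, -0.28, changed sign where given below. Of the alternatives for single named genes 2802 kept their side of the threshold and 244 lost it. Counts below are genes of the 76 called by edgeR unless DESeq2 is named. With upper-quartile factors, WT day 2 gave 11. Without scaling beyond library size, WT day 2 gave 9 (median 0.08), P248L against WT untreated 14, the difference of day 2 responses 3 and of day 5 responses 5, and medians were -1.18 at WT day 5, -1.30 for WT day 5 against day 2 and 0.19 for P248L against WT at day 5, with a summed level at WT day 5 of 0.458 times untreated. This setting moved the median of all genes to -0.49 at WT day 5 and -0.25 at P248L day 5. Fitting only the libraries compared gave 39 at WT day 2, 1 at P248L day 2, 7 for P248L against WT untreated, 23 at day 5 and 0 for the difference at day 2. At an adjusted p under 0.01 these were 7 at WT day 2, 8 at P248L day 2, 9 and 12 for P248L against WT untreated and at day 2, and 0 and 2 for the differences at days 2 and 5. Tested against a fold of 1.5 they were 1, 31, 0, 3, 1, 2, 0 and 1 for WT day 2, WT day 5, P248L day 2, P248L against WT untreated, at day 2 and at day 5, and the differences at days 2 and 5. Without P248L untreated library 1 and day 2 library 3 together, WT day 2 gave 37, P248L day 2 34 (median 0.36), P248L against WT 14, 35 and 19 at the 3 times and the difference at day 2 2, with medians of the differences of 0.09 and -0.14. DESeq2, and its size factors in edgeR, gave medians of -0.61 at WT day 5 and -0.92 for WT day 5 against day 2, and DESeq2 called 39 for P248L against WT untreated and 2 for the difference at day 2. With length and GC trends removed, the WT day 5 against day 2 median was -0.91, P248L against WT gave 36 untreated and 34 at day 2, and the difference at day 5 14. The longest transcript in place of the median length gave 28.9 CPM per kilobase for the median gene. Outside chromosome 17, chosen after seeing the data, P248L against WT at day 2 gave 13. The cause of these moves was not tested.

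The replicate number as a block over all libraries gave 57 at WT day 5, 69 at P248L day 5, 18 at P248L day 2, 19 for P248L against WT untreated and 7 for the difference at day 5. The block with length and GC trends removed gave a WT day 5 against day 2 median of -0.91, 34 for P248L against WT at day 2 and 13 for the difference at day 5. In P248L untreated and day 2 alone, chosen after seeing the data because same-numbered libraries deviated together there, the block gave 32.

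Leaving out 1 library at a time gave 9 (without WT untreated 3) to 26 (without P248L untreated 1) at WT day 2, 48 to 63 at WT day 5, 61 to 71 at P248L day 5, and 10 (without P248L day 2 library 3) to 29 (without P248L untreated 1) at P248L day 2. P248L against WT ran from 9 to 68 (without P248L untreated 3) untreated and from 13 (without WT day 2 library 2) to 31 (without P248L untreated 1) at day 2. The difference of responses ran from 0 (without WT untreated 3) to 9 (without P248L untreated 3) at day 2, with medians from -0.44 to 0.02, and from 3 (without WT untreated 1) to 32 (without P248L untreated 3) at day 5, with medians from -0.62 to -0.14. Medians ran from -1.11 to -0.99 for WT and from -1.39 to -1.18 for P248L day 5 against day 2. Depth limits Mrpl23 (5 to 112 reads a library) and Mrps36 (at least 12 reads).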
